A study of Drosophila melanogaster with 72 samples.

Results

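The odorant-binding protein (Obp) genes of the fruit fly were taken as every gene whose symbol starts with Obp and a digit, which gave 51 of the 15240 genes measured. For every gene the most abundant transcript by mean FPKM was used (FPKM is a fragment count scaled to transcript length and to the depth of the library); 63 of the 29260 transcripts belonged to the 51 members. Their RNA was measured in Oregon R male flies at 3, 5 and 7 weeks of age, under time-restricted feeding (TRF, in which flies were alternated onto a medium of agar and water) and ad libitum feeding (ALF, on cornmeal molasses agar). All flies were kept at 25 °C, and the groups shared strain and sex. The tissues were heart (week 5 only), head, and periphery, which is the whole body without the head. Samples were taken at zeitgeber times (ZT, hours of the daily cycle) 0, 6, 12 and 18, with ZTs 3 h apart for week 5 heads and peripheries. There was 1 library for any given tissue, age, diet schedule and ZT, so there were no strict replicates. The SDs and ranges below are spreads over libraries that differ in ZT and, as the n given with them shows, often also in feeding and age, and they include any effect of these. The labels do not say how many animals went into a library or whether libraries came from separate cultures, and the p-values measure only the spread between libraries.

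Odorant-binding proteins are small secreted proteins held together by disulfide bonds. In the antenna they fill the fluid of the olfactory hairs, where they bind hydrophobic odorants and pheromones near the receptor neurons. Other members are made in taste hairs, in glia, in the fat body or in the male reproductive tract, from which they pass to the female with the seminal fluid, so the family is not confined to smell. Lush (Obp76a), which is required for the response to the male pheromone cis-vaccenyl acetate, belongs to the family, but its symbol falls outside the rule and it is given as a separate gene.

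Of the 72 libraries, 12 did not carry the markers of their labelled tissue and were left out by a threshold of 1000 FPKM for ninaE, the main rhodopsin of the eye. That left 26 of 32 head libraries, 8 of 8 heart libraries and 26 of 32 periphery libraries. In the kept libraries ninaE ran between 9856 and 27051 FPKM in head and was at most 86.3 FPKM in heart and 0.633 FPKM in periphery. Hand, a transcription factor of heart cells, ran between 721 and 1779 FPKM in heart, was at most 1.68 FPKM in head and ran between 6.09 and 15.6 FPKM in periphery. The male markers Acp36DE (accessory gland) and Mst87F (sperm) were at least 54.6 and 416 FPKM in every kept periphery library and at most 0.214 and 2.25 FPKM in the kept heads. Heart libraries also held Mst87F, between 16.5 and 142 FPKM. Depth ran from 0.210 to 18.6 mega-reads (M reads) in the kept head libraries, from 7.78 to 23.7 M reads in heart and from 6.48 to 21.7 M reads in periphery, so values of head members at or below a few FPKM are the least precise. The head library of week 5, ALF, ZT15 (2.10 M reads) stood apart. It held the highest value of 17 of the 31 members with a mean of at least 1 FPKM in head and the lowest ninaE of the kept heads, 9856 FPKM.

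In head, 31 of the 51 members had a mean of at least 1 FPKM and 8 a mean of at least 100 FPKM. In heart the counts were 22 and 4, and in periphery 29 and 6. A few members made up most of the family's RNA. Obp44a, Obp99c and Obp19d held 77.1% of the summed FPKM of the family in head. Obp99c alone held 72.8% in heart, and Obp99c, Obp56g and Obp44a together held 68.4% in periphery. At the other end, 12 members stayed below a mean of 1 FPKM in all 3 tissues, the highest of these means being 0.912 FPKM: Obp46a, Obp47a, Obp47b, Obp50a, Obp50e, Obp56c, Obp57e, Obp58b, Obp58c, Obp58d, Obp73a and Obp85a. Of the other 39, 23 had their highest mean in head, 5 in heart and 11 in periphery, and 18 reached a mean of 1 FPKM in each of the 3.

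**Figure D1:**
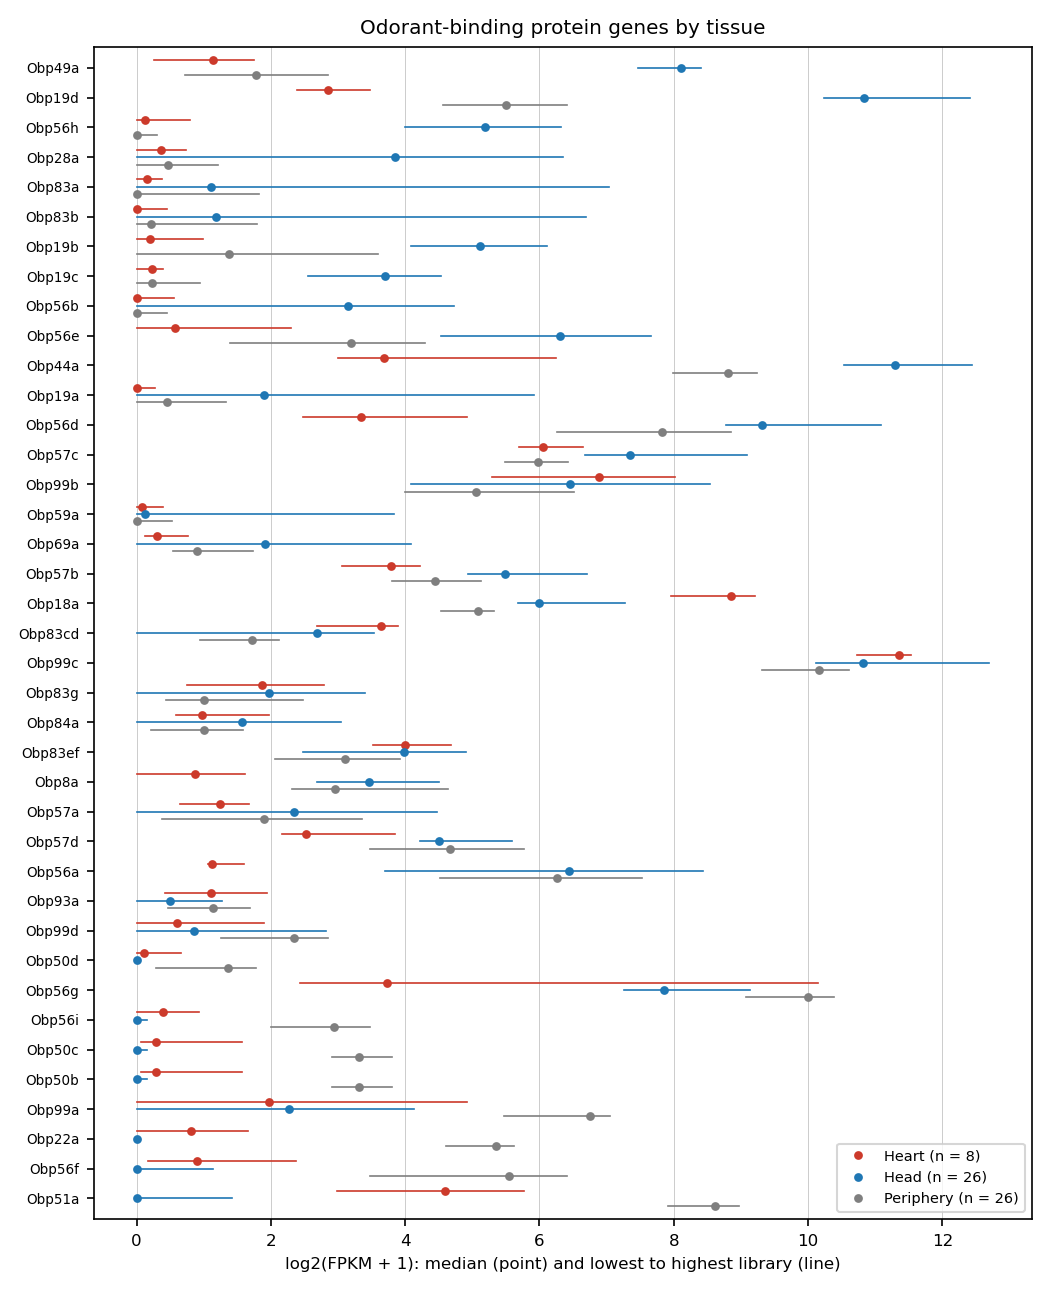
Levels of the 39 members with a mean of at least 1 FPKM in at least 1 tissue, as log2(FPKM + 1) on the horizontal axis. Points are medians over the kept libraries (heart 8, head 26, periphery 26) and lines run from the lowest to the highest library. Members at the top were higher in head than in periphery, members at the bottom lower, with head and periphery lines apart for Obp49a and Obp51a.

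Head and periphery shared 7 of their 10 most abundant members. Obp44a, which is known from glia and carries fatty acids, averaged 2872 ± 1033 FPKM in head (SD, n = 26). Obp99c averaged 2095 ± 1099 FPKM, Obp19d, known from several kinds of sensory hair, 2038 ± 842 FPKM, and Obp56d, known from antennae and mouthparts, 713 ± 326 FPKM. Obp49a, a protein of taste hairs that takes part in the suppression of sweet taste by bitter compounds, averaged 270 ± 49.6 FPKM. Its coefficient of variation over head libraries, 18.4%, was the lowest of the 21 members with a mean of at least 10 FPKM in head. Obp56g, Obp57c, Obp99b, Obp56a and Obp56e completed the 10 highest, at 265, 185, 126, 88.7 and 80.5 FPKM. In periphery the order began with Obp99c (1108 ± 255 FPKM, n = 26), Obp56g (998 ± 176 FPKM) and Obp44a (451 ± 83.4 FPKM), followed by Obp51a (385 ± 71.0 FPKM) and Obp56d (225 ± 89.2 FPKM). Obp99a, Obp56a, Obp57c, Obp19d and Obp56f came next, at 102, 88.9, 61.5, 46.5 and 44.2 FPKM. The mean ± SD intervals of most neighbours in these orders overlapped. Those of Obp19d and Obp56d and of Obp56d and Obp49a in head did not, nor did those of Obp56g and Obp44a and of Obp56d and Obp99a in periphery.

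Tissues were compared at week 5 with limma on log2(FPKM + 1), with feeding and ZT as blocks and Benjamini-Hochberg adjustment over all genes that averaged 1 FPKM or more. The average was over both tissues compared, so a gene could pass this filter through 1 tissue alone, which then fixed its direction. Between head and periphery 33 of the 36 members tested passed an adjusted p of 0.05, 24 of them higher and 9 lower in head. Most genes differed between these tissues: 78.4% of the 12373 genes tested passed, 34.3% higher and 44.1% lower, so the number of called members says little beyond the background. The median difference of the members was 1.03 on the log2 scale, against -0.09 over all genes. In bulk tissue, fewer cells of a type and less RNA per cell cannot be told apart.

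The members higher in head included taste, antennal and other proteins. Obp49a ran between 175 and 334 FPKM in the 13 head libraries of week 5 (median 242), against 0.643 to 6.20 FPKM in the 16 periphery libraries (median 2.44). The groups were far apart, by 6.05 on the log2 scale (SE 0.19, adjusted p = 2.87e-14, limma). Obp19d followed, between 1332 and 5457 FPKM in head (median 1849), against 22.7 to 57.9 FPKM in periphery (median 44.3), a difference of 5.52 (SE 0.15, adjusted p = 2.24e-15, limma). Obp56h, a gene tied to male mating behaviour and cuticular hydrocarbons, ran between 15.9 and 78.6 FPKM in head and was at most 0.232 FPKM in periphery. The 10 largest differences were completed by Obp28a (3.87), Obp19c (3.47), Obp56b (3.30), Obp19b (3.30), Obp56e (3.25), Obp44a (2.73) and Obp83a (2.28), after 4.94 for Obp56h. Of the list of Obp members known from antennae (lush included), 9 were tested and 9 were higher in head, with a median difference of 1.68. Of these, Obp19a, Obp28a, Obp69a, Obp83a and Obp83b averaged below 1 FPKM in the periphery libraries of week 5, as did Obp19c, Obp56b and Obp56h. They passed the filter through head alone and could only be called higher in head, so 9 of 9 was partly fixed beforehand. Of the members known from taste organs, 2 of 3 tested were higher in head and Obp57d, with a difference of 0.03 (SE 0.19), did not pass. The gene lush was 0.88 higher in head (SE 0.17, adjusted p = 0.000162, limma).

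The 9 members lower in head were led by proteins of the seminal fluid. Obp51a had reads in 1 of the 26 kept head libraries and at most 1.68 FPKM, against 239 to 501 FPKM in the 26 kept periphery libraries (median 392). At week 5 the difference was -8.58 (SE 0.13, adjusted p = 1.11e-18, limma), the largest of the family. Obp22a had no read in any kept head library, against 23.5 to 48.4 FPKM in periphery. With a limit of 3 reads over all head libraries, which is 0.0437 FPKM and covers counting error only, it was at least 831-fold lower in head. Obp56f (-5.28), Obp56i (-2.99) and Obp56g (-2.05) followed the same direction in 13 of 13 pairs of libraries. Obp56g, a protein of the ejaculatory bulb that goes into the mating plug, still ran between 152 and 561 FPKM in the heads of week 5, against 778 to 1339 FPKM in periphery. Obp99a (-4.46), Obp50b and Obp50c (-3.33 each) and Obp99d (-1.17) were the other 4. Obp22a, Obp50b, Obp50c, Obp51a, Obp56f and Obp56i averaged below 1 FPKM in the heads of week 5. They passed the filter through periphery alone, so only a call of lower in head was open to them. Obp50b and Obp50c are listed with identical values in every library and cannot be told apart here. Of 7 tested members of the seminal fluid list, 5 were lower and 2 were higher in head, namely Obp8a (0.60, SE 0.15) and Obp56e (3.25, SE 0.15). All 10 of the accessory gland markers and all 7 of the sperm and testis markers were lower in head as well, with median differences of -6.72 and -8.90. Only 2 of these 10 and 0 of these 7 averaged at least 1 FPKM in the kept heads. Most of the markers thus passed the filter through periphery alone and could only be called lower in head. Their part in the Obp differences was not tested. Obp56a, Obp57d and Obp57a did not pass, with differences of -0.04 (SE 0.23), 0.03 (SE 0.19) and 0.47 (SE 0.22).

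Other chemosensory genes were read beside the family. Of those with the 5 smallest p between head and periphery, a10 and CG30172, from the chemosensory protein family of small carriers, were higher in head, by 6.22 and 3.90. With at most 0.502 FPKM in the periphery libraries of week 5, a10 passed the filter through head alone and could only be called higher. The receptor genes Ir94d (-2.62), Or59b (-3.50) and Gr98a (-2.85) were lower in head. Odorant receptors split 5 higher and 3 lower of 8 tested, ionotropic receptors 8 higher and 3 lower of 11, and gustatory receptors 1 higher and 4 lower of 6. Over all genes tested, 34.3% were higher and 44.1% lower in head. Only 6 of 60 odorant, 10 of 59 ionotropic and 7 of 60 gustatory receptors averaged at least 1 FPKM in the kept heads. In the kept periphery libraries the counts were 5, 5 and 6. Receptors below 1 FPKM in 1 tissue could be called in 1 direction only, which may have set part of these splits.

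The heart held a narrow set of members. Obp99c had 1842, 1697, 2858 and 2718 FPKM in TRF hearts at ZT00, ZT06, ZT12 and ZT18, against 1927, 2803, 2532 and 2955 FPKM in ALF hearts. Every heart library exceeded every periphery library of week 5, which ran between 635 and 1337 FPKM, and the difference was 1.21 (SE 0.15, adjusted p = 2.92e-05, limma). Obp18a had 592, 376, 466 and 530 FPKM in TRF hearts and 248, 455, 338 and 476 FPKM in ALF hearts. These values lay above all heads of week 5 (51.3 to 154 FPKM) and all periphery libraries (22.2 to 39.0 FPKM), with differences of 2.80 against head (SE 0.17, adjusted p = 2.48e-06, limma) and 3.66 against periphery (SE 0.15, adjusted p = 1.05e-08, limma). Obp18a was thereby second in heart, at a mean of 435 FPKM, but eleventh in head and thirteenth in periphery. Obp56g came next, at a mean of 153 FPKM that 1 library carried (median 12.9 FPKM). Obp99b, Obp57c, Obp51a, Obp44a, Obp83ef, Obp57b and Obp83cd followed at means of 113, 68.9, 25.9, 20.8, 15.8, 13.2 and 10.5 FPKM.

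Against periphery, 24 of 29 members passed, 6 higher and 18 lower in heart, where 82% of all genes passed, 17% higher and 65% lower. The 6 higher were Obp18a, Obp83cd (1.77), Obp99b (1.27), Obp99c, Obp83ef (0.88) and Obp83g (0.85). Obp83cd and Obp83ef each encode a fused pair of odorant-binding domains and lie next to each other, with reads at their overlap not assignable in unstranded libraries. The 10 lowest differences were those of Obp56g (-5.60), Obp56a (-5.28), Obp44a (-4.71), Obp56f (-4.56), Obp56d (-4.54), Obp22a (-4.45), Obp99a (-4.43), Obp51a (-4.21) and the inseparable Obp50b and Obp50c (-3.002). All 7 tested members of the seminal fluid list were lower in heart. Of these, Obp8a, Obp22a, Obp56e and Obp56i averaged below 1 FPKM in heart, as did Obp50b and Obp50c. They passed the filter through periphery alone and could only be called lower in heart. The median of all genes was -0.64 in this comparison and the median of the members -2.04; rescaling by the median of ratios moved the median of all genes to -0.07 and left 7 members higher and 15 lower, 21 of the 24 calls being shared and 0 of the 24 changing sign. The gene lush was 1.34 higher in heart than in periphery (SE 0.16, adjusted p = 2.54e-05, limma), at 5.05 to 9.60 FPKM in heart, against 1.08 to 3.43 FPKM in the periphery libraries of week 5. Of the other chemosensory genes, the 5 with the smallest p were receptor genes lower in heart, Or59b (-3.64), Or59c (-2.77), Ir75d (-2.13), Ir94d (-2.55) and Or23a (-1.51). In heart only 2 of 60 odorant and 3 of 59 ionotropic receptors averaged at least 1 FPKM, so the filter may have set these directions.

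Against head, 26 of 32 members passed, 4 higher and 22 lower in heart, where 77.6% of all genes passed, 24.2% higher and 53.4% lower. Higher in heart were Obp51a (4.34), Obp18a (2.80), Obp83cd (0.80) and Obp99c (0.60). Obp51a had 13.0, 43.1, 24.4 and 21.9 FPKM in TRF hearts and 18.3, 26.4, 53.4 and 6.96 FPKM in ALF hearts, against 0 FPKM in 12 of the 13 heads of week 5. With a mean below 1 FPKM in those heads, Obp51a passed the filter through heart alone and could only be called higher in heart. The sperm and testis markers were also higher in heart than in head, 7 of 7, and 7 of 9 accessory gland markers, with median differences of 4.66 and 2.37. Each sperm and testis marker averaged below 1 FPKM in the kept heads, so its direction was set by the filter as well. Of the 10 listed accessory gland markers, 2 averaged at least 1 FPKM in the kept heads. The direction of most of them was therefore also set by the filter. The part of these markers in the Obp51a values was not tested. The largest deficits were those of Obp19d (-8.00), Obp44a (-7.68), Obp49a (-6.52), Obp56d (-6.41), Obp56e (-5.51), Obp56a (-4.98), Obp56h (-4.62), Obp19b (-4.58), Obp56g (-4.04) and Obp28a (-3.96). Of these, Obp56e, Obp56h, Obp19b and Obp28a averaged below 1 FPKM in heart. They passed the filter through head alone and could only be called lower in heart. Rescaling by the median of ratios moved the median of all genes from -0.42 to 0.07 and kept 25 of the 26 calls, with 6 members higher and 21 lower in heart. Among other chemosensory genes, a10 (-5.78), CG30172 (-4.69), antdh (-4.55), the coreceptor Ir76b (-2.19) and Or43b (-1.31) had the smallest p, all lower in heart. With at most 0.775 FPKM in heart, a10 passed the filter through head alone and could only be called lower in heart. The same may hold for the 2 receptor genes, since few receptors averaged 1 FPKM in heart (2 of 60 odorant and 3 of 59 ionotropic).

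One heart library departed from the others for a few members. Obp56g had 1135 FPKM at TRF ZT06, against 4.38, 8.71 and 17.0 FPKM in the other TRF hearts and 7.98, 4.58, 23.1 and 24.4 FPKM in ALF hearts. In the same library Obp44a had 74.7 FPKM, where the other 7 hearts ran between 7.03 and 22.3 FPKM, and Obp99a had 29.2 FPKM, where they ran between 0 and 6.99 FPKM. The summed accessory gland markers were lowest in that library, at 16.1 FPKM against 25.1 to 212 FPKM in the other hearts. The summed sperm and testis markers were at 208 FPKM in the TRF heart of ZT06. The other hearts ran from 63.3 to 530 FPKM for these, and only the ALF heart of ZT18 was higher. Neither list was drawn up for the ejaculatory bulb, the organ named above for Obp56g, so these sums do not cover it. The part of male tissue in the Obp56g value was not tested. Without ZT06, Obp56g was -6.29 in heart against periphery (adjusted p = 1.53e-06, limma).

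**Figure D2:**
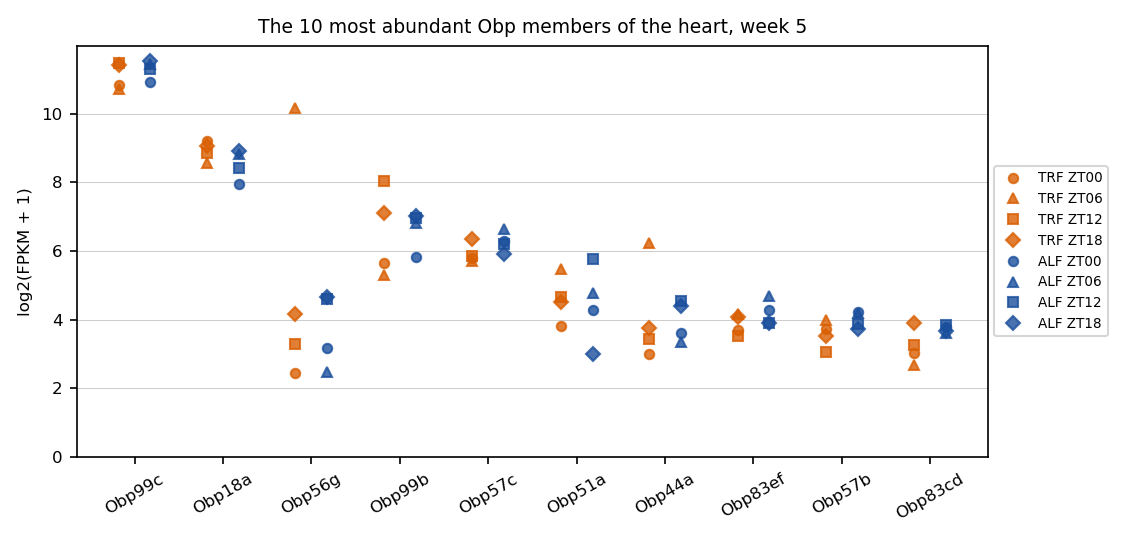
Levels of the 10 most abundant members in heart at week 5, as log2(FPKM + 1), with 1 symbol a library (TRF left, ALF right, symbol shape by ZT). Obp99c sat highest in all 8 hearts, between 1697 and 2955 FPKM, and Obp56g had 1135 FPKM at TRF ZT06 while the other 7 hearts ran between 4.38 and 24.4 FPKM.

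Of the 21 members with a mean of at least 10 FPKM in head, 3 known from antennae varied most between head libraries. Obp83a and Obp83b, neighbouring genes for proteins of the olfactory hairs on chromosome arm 3R (1797870 to 1802539 on build dm3), had coefficients of variation of 193% and 182%, and Obp28a, a protein of the basiconic hairs, of 110%. Obp19d and Obp56d, also known from antennae, had 41.3% and 45.8%, and the next highest was Obp99b at 77.1%. With medians of 1.15 and 1.28 FPKM, Obp83a and Obp83b reached a mean of 10 FPKM only through the libraries where they were high. Their large coefficients of variation were therefore partly fixed by that limit. Obp83a had 130 FPKM at week 3 TRF ZT12 and 94.4 FPKM at week 3 ALF ZT06. It had 70.2, 36.3 and 21.8 FPKM at week 5 ALF ZT18, ZT21 and ZT12, and 22.4 and 11.8 FPKM at week 5 TRF ZT21 and ZT18. At week 7 it had 9.75 FPKM at TRF ZT06 and 33.5 FPKM at ALF ZT00. In the remaining 17 head libraries it was at most 1.56 FPKM, so no kept head library fell between 1.56 and 9.75 FPKM. The highest value rested on 23 reads in a library of 0.210 M reads, while the 70.2 FPKM rested on 699 reads and the lowest value of week 5, 0.164 FPKM, on 1 read in a library of 7.29 M reads.

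The same 9 libraries were the 9 highest for Obp83b, whose values lay at 12.1 FPKM and above in them and at most at 2.31 FPKM elsewhere. They were also the 9 highest for Obp59a, a protein of the moisture-sensing hairs of the antenna. Obp19a and Obp69a, a gene linked to pheromone response and social behaviour, shared 8 of the 9, and Obp28a, Obp84a and lush 7. Genes of the olfactory hairs outside the family followed: Os-C and a5 were highest in the same 9 libraries, and Orco, the coreceptor of odorant receptors, in 8 of them. Os-C ran between 1.01 and 161 FPKM over the heads and Orco between 0 and 21.7 FPKM. Other antennal genes shared fewer, 7 for a10 and 5 each for Snmp1, antdh, Ir25a and Ir8a. Among abundant Obp members, Obp44a and Obp56d shared 5, Obp19d 4, Obp99c 3 and Obp49a 1, and ninaE shared 3. The share of all genes with as many libraries in common was not counted. These counts therefore have no background, and the lower ones, such as 5, cannot be read as a shared pattern. The 9 libraries came from all 3 weeks and from both feeding types, 4 from TRF and 5 from ALF. At week 5 they were the ZT18 and ZT21 libraries of TRF and the ZT12, ZT18 and ZT21 libraries of ALF. How much antennal tissue each library held was not recorded in the labels, and its part in these values was not tested.

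**Figure D3:**
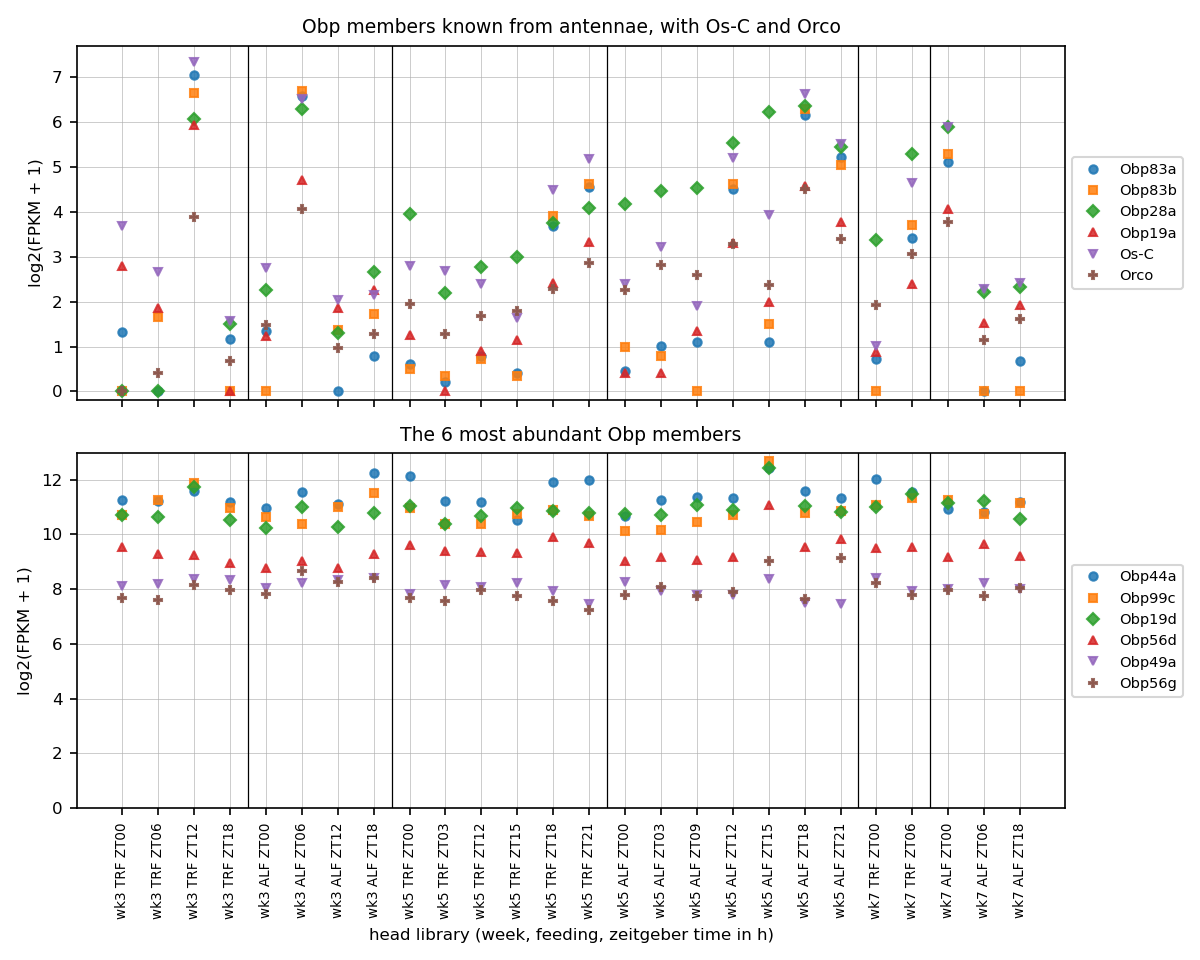
Levels in each of the 26 kept head libraries as log2(FPKM + 1), ordered by week, feeding (TRF left of ALF) and ZT, 1 point a gene and library. The upper panel shows Obp83a, Obp83b, Obp28a, Obp19a, Os-C and Orco, with Obp83a between 0 and 130 FPKM; the lower panel shows the 6 most abundant members, with week 5 ALF ZT15 highest for Obp99c at 6651 FPKM.

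The effect of TRF relative to ALF was tested separately by tissue and age, with ZT as a block. No member passed an adjusted p of 0.05 in any of the 7 comparisons (limma), and hardly any gene did: 0.167% of the 12001 genes passed in periphery at week 7 and 0% in the other 6 comparisons. At an unadjusted p under 0.05, 1, 2 and 2 of the 31 members tested in head passed at weeks 5, 3 and 7, where 1.42%, 7.59% and 3.14% of all genes did. In periphery 5, 1 and 4 of the 29 members did so at weeks 5, 3 and 7, where 5.24%, 6.2% and 15.9% of all genes did, and in heart 2 of 22, where 6.53% of all genes did. Limma-voom on the recovered reads called 0 members in each of the 7.

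In periphery at week 5, Obp49a had the smallest p of the family. It had 5.67, 4.28, 2.2, 5.18, 2.39, 2.79, 6.20 and 4.86 FPKM in TRF flies from ZT00 to ZT21 in steps of 3 h, against 0.643, 2.02, 0.921, 2.29, 0.851, 2.49, 3.12 and 1.37 FPKM in ALF flies. TRF was higher in 8 of 8 pairs, by 0.95 (SE 0.17, adjusted p = 0.386, limma), although the ranges of the groups overlapped. Obp57a was lower under TRF in 7 of 8 pairs, by -0.52 (SE 0.14, adjusted p = 0.854, limma), at 1.07 to 7.06 FPKM in TRF flies and 2.06 to 9.25 FPKM in ALF flies. Obp93a was lower in 8 of 8 pairs, by -0.39 (SE 0.12, adjusted p = 0.873, limma), at 0.527 to 1.8 FPKM in TRF flies and 0.992 to 2.24 FPKM in ALF flies. Obp49a and Obp93a thus differed in the same direction at every ZT, at levels of a few FPKM, without passing the adjustment over 12001 genes. Both were named because they were among the 3 members with the smallest p. The share of all genes with the same direction in 8 of 8 pairs was not counted. The agreement over pairs therefore has no background and cannot be read as an effect of feeding. No member's TRF and ALF ranges were apart in periphery at week 5, and 0.0167% of genes had ranges apart.

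**Figure D4:**
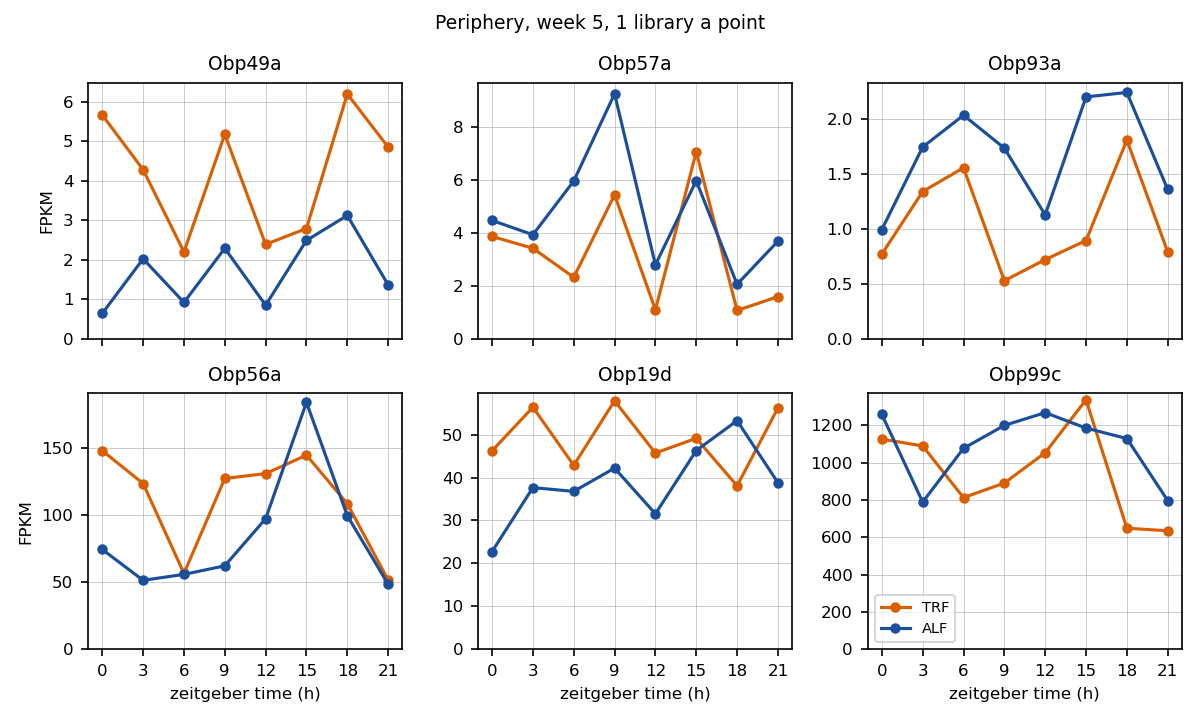
FPKM of 6 members in periphery at week 5 against ZT, 1 library a point, TRF and ALF as separate lines. Obp49a was higher under TRF and Obp93a lower at each of the 8 ZTs, while the Obp99c lines crossed, running between 635 and 1337 FPKM.

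In head at week 5, Obp28a had 14.4, 3.6, 5.84, 6.97, 12.4 and 15.9 FPKM in TRF flies at ZT00, ZT03, ZT12, ZT15, ZT18 and ZT21. ALF flies had 16.9, 21.2, 45.2, 73.3, 80.9 and 42.3 FPKM at these times and 22.05 FPKM at ZT09. Every TRF library lay below every ALF library, and 0.101% of 9886 genes had ranges apart in this comparison. The difference was -2.07 (SE 1.05, adjusted p = 0.906, limma) and did not pass. Obp28a shared 7 of its 9 highest libraries with Obp83a; Orco, from the same hairs, ran between 1.43 and 6.27 FPKM in TRF heads and between 3.77 and 21.7 FPKM in ALF heads of week 5, and the part of antennal tissue in the Obp28a values was not tested. The gene lush, also from antennal hairs, likewise ran between 2.35 and 4.11 FPKM in TRF heads and between 4.53 and 11.3 FPKM in ALF heads, a difference of -0.96 (SE 0.42, adjusted p = 0.906, limma), which did not pass. Obp56g and Obp18a had the other smallest values of p, with differences of -0.64 (SE 0.24, adjusted p = 0.906, limma) and -0.32 (SE 0.18, adjusted p = 0.906, limma). Obp56g ran between 152 and 250 FPKM in TRF heads and between 201 and 561 FPKM in ALF heads. The highest ALF values were 561 FPKM at ZT21 and 527 FPKM at ZT15, and the other ALF heads were at most 270 FPKM. The ZT15 library is the one that stood apart, and the ZT21 library was the only kept head with reads of Obp51a, 12 in number. Its summed accessory gland markers were at 17.3 FPKM, where kept heads ran between 3.2 and 31.6 FPKM. Its summed sperm and testis markers were at 0.385 FPKM, where kept heads ran between 0 and 5.56 FPKM. The part of male tissue in these Obp56g values was not tested. The members as a whole lay low in this comparison, 28 of 31 below 0 with a median of -0.26, against 0.04 over all genes. Without ZT15, the time of the library that stood apart, 20 of 31 lay below 0 and the median was -0.07, against -0.02 over all genes.

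At the other ages the smallest p belonged to different members. In head at week 3 these were Obp19c (-0.64, SE 0.17), Obp83ef (-0.77, SE 0.29) and Obp56b (-1.10, SE 0.54), and at week 7 Obp19c (0.84, SE 0.24), Obp57d (-0.82, SE 0.31) and Obp56a (1.53, SE 0.86). Obp19c had 7.79, 8.08, 4.88 and 11.8 FPKM in TRF heads at week 3, against 11.2, 13.4, 10.3 and 16.8 FPKM in ALF heads, lower in 4 of 4 pairs. At week 7 it had 22.1 and 21.5 FPKM in TRF heads, against 9.80, 14.0 and 12.1 FPKM in ALF heads, higher in 2 of 2 pairs. The TRF effect on Obp19c at week 7 minus that at week 3 was 1.48 (SE 0.30, adjusted p = 0.721, limma), which did not pass, and 0% of genes passed. The next smallest p in head for this difference belonged to Obp83cd (1.22, SE 0.58) and Obp57d (-0.76, SE 0.39). In periphery it was Obp83cd (0.99, SE 0.31), Obp83g (1.39, SE 0.53) and Obp99a (-0.75, SE 0.32), none of which passed where 0% of genes did.

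In periphery at week 3 the members with the smallest p between TRF and ALF were Obp83g (-1.21, SE 0.38), Obp99d (-0.68, SE 0.44) and Obp83cd (-0.33, SE 0.22), with 2 pairs of libraries. At week 7, also with 2 pairs, they were Obp57b (0.58, SE 0.18, adjusted p = 0.238, limma), Obp83cd (0.66, SE 0.22) and Obp56a (1.05, SE 0.38). In heart, Obp57b was lower under TRF in 4 of 4 pairs, at 12.3, 14.9, 7.35 and 10.5 FPKM in TRF hearts, against 17.6, 17.2, 13.5 and 12.3 FPKM in ALF hearts, by -0.42 (SE 0.13, adjusted p = 0.708, limma). Obp19d (-0.44, SE 0.15) and Obp83cd (-0.51, SE 0.21) came next. No heart member had TRF and ALF ranges apart, and 3.16% of genes did.

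Age was compared over both feeding types, with feeding and ZT as blocks. In periphery 2 of 29 members passed between weeks 7 and 3, both higher at week 7, where 7.43% of 12002 genes passed, 6.24% higher and 1.19% lower; the share of members, 6.9%, was near this background. Obp19d had 68.0 and 77.5 FPKM in TRF flies and 83.6, 53.3 and 41.6 FPKM in ALF flies at week 7. At week 3 it had 52.7 and 32.2 FPKM in TRF flies and 32.9, 27.4 and 39.1 FPKM in ALF flies. The rise was 0.79 (SE 0.19, adjusted p = 0.0340, limma) and was seen in 5 of 5 pairs, with overlapping ranges. Obp56e is on the seminal fluid list but averaged higher in head (80.5 FPKM) than in periphery (9.27 FPKM). In periphery it had 14.8 and 13.7 FPKM in TRF flies and 18.7, 8.25 and 17.8 FPKM in ALF flies at week 7. At week 3 it had 10.2 and 5.06 FPKM in TRF flies and 1.64, 3.19 and 10.3 FPKM in ALF flies. It was 1.31 higher at week 7 (SE 0.33, adjusted p = 0.0396, limma), again in 5 of 5 pairs. Both calls rested on few libraries: without ZT06, ZT12 or ZT18 in turn, neither passed.

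Between weeks 5 and 3 in periphery, 1 of 29 members passed, where 3.36% of genes did, 3.11% higher and 0.25% lower. Obp56a ran between 48.4 and 184 FPKM at week 5 (median 98.3, n = 16), against 21.9 to 86.6 FPKM at week 3 (median 66.7, n = 5). It was 0.88 higher at week 5 (SE 0.20, adjusted p = 0.0402, limma), in 5 of 5 pairs, and did not pass without ZT06, ZT12 or ZT18. Obp44a moved the other way without passing, at a mean of 575 ± 23.7 FPKM at week 3 (SD, n = 5), 429 ± 54.0 FPKM at week 5 (n = 16) and 395 ± 84.3 FPKM at week 7 (n = 5). Its week 7 value was -0.57 relative to week 3 (SE 0.16, adjusted p = 0.0568, limma), lower in 5 of 5 pairs. Ages and sequencing batches cannot be told apart, since the labels give no batch. Among other chemosensory genes of the periphery, Gr98a was higher at weeks 7 and 5 than at week 3, by 1.08 and 0.69, PebIII was higher at week 7 (0.70), Gr43a, a fructose receptor, at week 5 (0.57), and Gr32a, a receptor for bitter compounds and male pheromone, was lower at week 7 (-0.43).

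**Figure D5:**
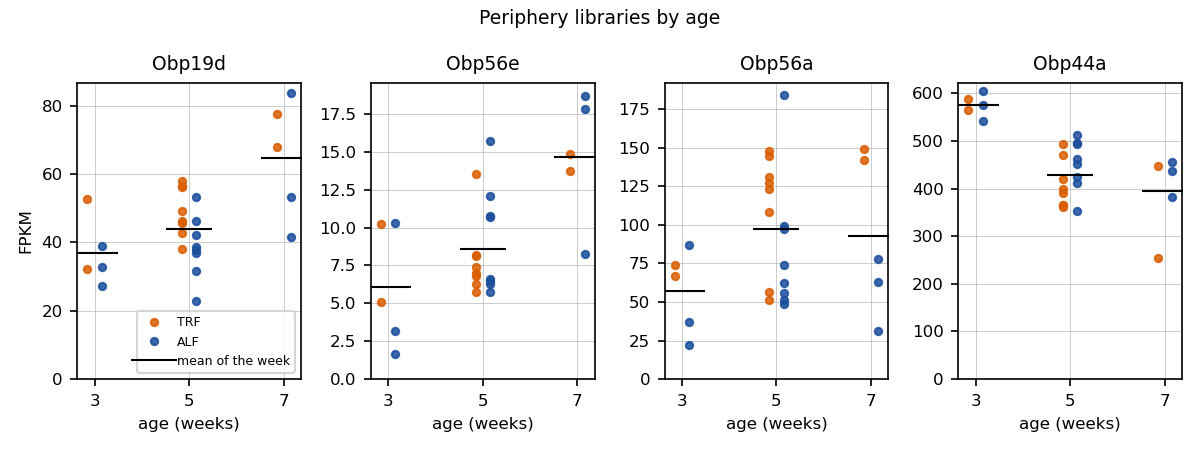
FPKM of Obp19d, Obp56e, Obp56a and Obp44a in the kept periphery libraries at 3, 5 and 7 weeks, 1 point a library (TRF left, ALF right), with the mean of each week as a bar. Week means of Obp19d were 36.9, 43.9 and 64.8 FPKM, and those of Obp44a 575, 429 and 395 FPKM.

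In head no member passed between weeks 7 and 3 or between weeks 5 and 3 (limma), where 0% and 0.0203% of 9842 genes passed, the second being 0.0102% higher and 0.0102% lower. At an unadjusted p under 0.05, 4 and 7 of 31 members passed, where 3.23% and 12.0% of all genes did, and limma-voom called 0 and 1, the last being Obp99d, lower at week 5. The smallest p between weeks 7 and 3 belonged to Obp57a (1.44, SE 0.44), Obp99a (1.26, SE 0.44) and Obp56e (0.86, SE 0.30). Between weeks 5 and 3 it belonged to Obp56e (0.99, SE 0.28, adjusted p = 0.275, limma, higher in 6 of 6 pairs), Obp69a (1.91, SE 0.60) and Obp56d (0.37, SE 0.12). The heads of week 3 had 0.210 to 2.30 M reads, the 3 shallowest head libraries among them.

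Rhythms of 24 h were tested at week 5 with a cosine and a sine term over both feeding types. No member passed (limma), where 0.242% of 11992 genes passed in periphery and 0% in heart and in head. At an unadjusted p under 0.05, 8 of 31 members passed in head, 2 of 22 in heart and 4 of 30 in periphery, where 6.76%, 10.4% and 26.5% of all genes did. Limma-voom called 0 members in each. In periphery Obp57b had the smallest p, with an amplitude of 0.30 on the log2 scale (SE 0.06) and a fitted peak at ZT 6.97 (adjusted p = 0.0726, limma). It ran between 19.9 and 33.9 FPKM in TRF flies, highest at ZT09, and between 14.8 and 30.6 FPKM in ALF flies, highest at ZT06. The adjoining Obp57c peaked at ZT 8.71 with an amplitude of 0.24, and Obp50b and Obp50c at ZT 4.99 with an amplitude of 0.15.

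In head the smallest p belonged to Obp19c (amplitude 0.47, peak at ZT 19.2), Obp19a (1.67, ZT 17.9) and Obp28a (0.93, ZT 17.9). No head library of week 5 was kept at ZT06, and at ZT09 only the ALF library was. The head fits therefore had almost no midday values. Obp19a and Obp28a shared 8 and 7 of their 9 highest head libraries with Obp83a, which at week 5 were the ZT18 and ZT21 libraries of TRF and the ZT12, ZT18 and ZT21 libraries of ALF. The part of antennal tissue in these fits was not tested. Obp99b, one of the 10 most abundant members in head and in heart, had an amplitude of 1.04 in head (SE 0.30, peak at ZT 16.7, adjusted p = 0.689, limma) and of 1.01 in heart (SE 0.27, peak at ZT 14.0, adjusted p = 0.416, limma). In head at week 5 it had 130, 44.2, 70.1, 211, 142 and 271 FPKM in TRF flies at ZT00, ZT03, ZT12, ZT15, ZT18 and ZT21. ALF heads had 46.6, 40.1, 103, 72.8, 373, 140 and 66.4 FPKM at ZT00, ZT03, ZT09, ZT12, ZT15, ZT18 and ZT21. The highest TRF value fell at ZT21 and the highest ALF value at ZT15, in the library that stood apart. In heart it had 49.5, 38.2, 259 and 137 FPKM in TRF flies and 55.5, 112, 123 and 128 FPKM in ALF flies at ZT00, ZT06, ZT12 and ZT18. In heart the next smallest p belonged to Obp57b (amplitude 0.35) and Obp51a (0.90). The rhythms of TRF and ALF flies differed for no member, where 0% of genes passed in head and in periphery. The smallest p for such a difference belonged to Obp28a, Obp83g and Obp44a in head, with differences of 1.03, 0.92 and 0.98, and to Obp99d, Obp56i and Obp56e in periphery, with 0.82, 0.47 and 0.79.

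The members lie in groups along the chromosomes, with 29 on arm 2R, 12 on 3R, 6 on X, 2 on 2L and 2 on 3L, and neighbours were in some groups expressed in different tissues and in others in the same one. The group of 9 genes from Obp56a to Obp56i spans 15585228 to 15756219 on 2R (dm3, coordinates of the deposited table). Within it Obp56d averaged 713 FPKM in head and 225 FPKM in periphery, Obp56h 35.7 FPKM in head and less than 1 FPKM in periphery, and Obp56g 265 FPKM in head and 998 FPKM in periphery. Obp56f and Obp56i were higher in periphery, and Obp56c was below 1 FPKM in both. Obp83a and Obp83b on 3R both averaged higher in head, at 17.0 and 16.7 FPKM, than in periphery, at 0.125 and 0.230 FPKM. On X, Obp19a to Obp19d (20286772 to 20292009) were all higher in head, with means of 7.43, 35.9, 12.2 and 2038 FPKM. On 3R, the group of Obp99a to Obp99d (25497379 to 25542549) held Obp99c, abundant in all 3 tissues, Obp99b, higher in head and in heart than in periphery, and Obp99a and Obp99d, lower in both than in periphery.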

How the data were processed

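RNA levels were analysed in 72 libraries made, per the labels, from unstranded polyA+ RNA. The values are FPKM, computed and deposited by the authors for 29260 transcripts; the tools in the submitters' processing notes are HOMER, STAR 2.2.0c and CASAVA 1.8.2, with genome build dm3, and how genes were counted is not given in the sources used here. Low FPKM values multiplied by transcript length were whole multiples of a fixed step in each library, which gave totals of 0.210 M to 23.7 M reads; 100% of the low values came out whole within 0.02 reads beyond rounding. Models were fitted to log2(FPKM + 1) with limma 3.58.1 (R 4.3.3; empirical Bayes with a trend) where a gene averaged 1 FPKM or more in the libraries fitted, with Benjamini-Hochberg adjustment over all genes and a threshold of 0.05. Changes are on this scale and understate those of low genes. Feeding tests shared a spread over all weeks of a tissue and were blocked by week and ZT. A library with no TRF or ALF partner therefore added nothing to them. Age tests used the kept libraries of ZT 0, 6, 12 and 18. In periphery, no ZT00 library and no TRF library of ZT06 was kept at weeks 3 and 7. Periphery pairs with week 3 thus came from ALF at ZT06 and from both feeding types at ZT12 and ZT18. Tissue and age tests were blocked by feeding and ZT, since the labels number no replicates. Fits were tested on simulated data. Python 3.11.15 with pandas 2.3.3 and matplotlib 3.10.9 made summaries and figures. Read limits cover counting error only.

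The members, the gene lists, the removal of 12 libraries and the tests were chosen with earlier results of these data known. Named were all members past the threshold, up to 10 in each direction, otherwise the 3 with the smallest p; the 10 most abundant of each tissue; lush; at most 5 other chemosensory genes past the threshold; and ninaE, Acp36DE, Mst87F and Hand. Alternatives were other pseudocounts, filters and scaling, limma-voom on recovered reads, all libraries as labelled, no block, weeks fitted alone, and each ZT left out.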

Additional observations from a re-analysis of the deposited data

Results flagged for a closer look

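The head library of week 5 ALF ZT15 lay far above the other 6 ALF libraries of that week for 8 of the 10 most abundant head members. Obp99c had 6651 FPKM there against 1110 to 1834 FPKM, Obp44a 5583 against 1621 to 3053 FPKM, Obp19d 5457 against 1670 to 2135 FPKM and Obp56d 2169 against 524 to 921 FPKM. Obp57c had 545 against 152 to 174 FPKM, Obp99b 373 against 40.1 to 140 FPKM, Obp56a 346 against 35.0 to 134 FPKM and Obp56e 201 against 49.1 to 102 FPKM. In periphery the library of the same week, feeding and ZT was highest for Obp56a, 184 FPKM against 48.4 to 99.4 FPKM.

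At week 3, the TRF head of ZT12, the shallowest library, had 3369 FPKM of Obp19d against 1484 to 1680 FPKM and 3106 FPKM of Obp44a against 2351 to 2440 FPKM. The ALF head of week 3 ZT18 had 86.9 FPKM of Obp56e against 22.1 to 31.6 FPKM and 300 FPKM of Obp99b (299.9 before rounding) against 16.0 to 45.8 FPKM. The TRF heart of ZT06 had 1135 FPKM of Obp56g against 4.38 to 17.0 FPKM and 74.7 FPKM of Obp44a against 7.03 to 12.4 FPKM. These 15 values, of 80 combinations of member and group looked at, came from 5 libraries. Chance marks about 1 in 20 independent groups only where values are normally spread, which FPKM values taken at different ZTs need not be. Members measured in 1 library are also not independent, so the count was not tested against chance.

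The 12 libraries left out of all comparisons held Obp genes of the other tissue. The 6 labelled head had 220 to 406 FPKM of Obp51a (219.9 before rounding for the lowest), against at most 1.68 FPKM in the kept heads, and 22.5 to 46.4 FPKM of Obp22a, against 0 FPKM. The 6 labelled periphery had 1411 to 2505 FPKM of Obp19d, against 22.7 to 83.6 FPKM in the kept periphery libraries, and 188 to 344 FPKM of Obp49a, against 0.643 to 6.20 FPKM.

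Obp49a was lower under TRF in all 4 pairs of heart libraries (-0.42) and higher in all 8 pairs of week 5 periphery libraries (0.95), the only such opposition among 132 pairs of feeding contrasts with at least 3 pairs of libraries; this difference was not tested. In heart Obp49a was at most 2.37 FPKM.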

How the results depend on the processing

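The 7 feeding comparisons, both tests of a change in the feeding effect with age, and all 5 rhythm tests called 0 members under every alternative run, rhythm fits of TRF or ALF libraries alone (added after seeing the data) included. The calls by tissue stayed within 1.5 times the main counts: 32 to 35 members between head and periphery, 23 to 24 between heart and periphery and 23 to 27 between heart and head when a ZT was left out. Obp51a between heart and head did not pass with all libraries as labelled (2.50, adjusted p = 0.0789, limma; with each ZT left out in turn it passed). The age calls moved. For week 7 against week 3 in periphery, 2 members in the main test became 1 with no filter on low values (Obp19d), 1 by limma-voom (Obp19d), 1 after rescaling by the median of ratios (Obp44a, lower), 0 with all libraries as labelled, and 0 to 2 when a ZT was left out. For week 5 against week 3 in periphery, 1 member became 0 with no filter, 2 with a minimum mean of 5 FPKM (Obp56a and Obp57b), 0 after rescaling, 0 as labelled and 0 to 1 when a ZT was left out. For week 5 against week 3 in head, 0 became 1 by limma-voom (Obp99d). The cause was not tested. Depth limits low members of the shallow head libraries most.

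Blocks came from ZT and feeding, with no replicate numbers shared by the labels. Without this replicate block, 5 members passed between weeks 7 and 3 in periphery (Obp19d, Obp44a, Obp56e, Obp56f and Obp99a), and between weeks 5 and 3 the count stayed 1, with Obp56f passing and Obp56a not. The block moved no other count of members by over 1.5 times.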
